A study of Mus musculus with 9 samples.

Results

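The genes described here are 34 genes of glycolysis and of the cellular response to low oxygen, measured in mouse embryos at E11.5, in 3 regions of the optic cup. They were chosen by name: the enzymes from hexokinase to lactate dehydrogenase, the carriers of glucose and lactate, and genes that the hypoxia-inducible factor (HIF) is known to regulate or that regulate it. A gene was measured by the probe set with its name alone in the platform annotation, and by the brightest such probe set over the 9 arrays where there were several. On this rule 32 of the 34 had a probe set, among 18193 genes on the array. Gpi1 and Eno1 had none and are not analysed here, and Gapdh was measured only by the array's control probe sets, which are treated apart. The other 31 all lay above the 40th percentile of the array on at least 3 arrays and were tested together with the rest of the 12770 genes that did so.

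Cup tissue was cut out by laser, and the RNA of each sample was read on an Affymetrix mouse array of its own. There were 3 arrays each of the optic fissure, the nasal cup and the temporal cup, lettered A, B and C within each region. The fissure samples took in cup cells lying no more than 5 cell diameters from the fissure edge, as the description of 1 fissure sample says. No treatment or mutation is named for any group, and the strain and the number of embryos per sample are not given in the sources used here.

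Glycolysis splits glucose into pyruvate in the cytosol. Pyruvate either enters the mitochondria or is reduced to lactate by lactate dehydrogenase, which regenerates the NAD+ that glycolysis needs, and monocarboxylate transporters carry the lactate out. When oxygen is short, the prolyl hydroxylases that mark HIF-1 alpha for destruction slow down, the factor accumulates, and it raises the transcription of glucose carriers, glycolytic enzymes and other targets. Proliferating cells, retinal progenitors among them, are known to run glycolysis to lactate also when oxygen is present, and the genes are then under the control of growth signals and MYC proteins as well.

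HIF binds DNA at a short core, which is why the promoters of the members that changed are shown. The 5 bases ACGTG and GCGTG were searched on both strands of RefSeq's promoter windows of the GRCm38.p6 assembly, which run from 250 bases before a gene's start to 50 bases after it. Of 32851 windows of all genes, 19.6% held ACGTG, 32.4% held GCGTG and 43.8% held either. Of the 46 windows of the 32 members in that table, 56.5% held ACGTG, 58.7% held GCGTG and 80.4% held either, and 29 of the 32 members had at least 1 window with either. Several windows of a gene can overlap, and the shares were not matched for base composition. The count by gene has no share over all genes beside it and cannot be set against the 43.8% of windows. The members were also chosen in part as genes that HIF is known to regulate. CACGTG, the core on both strands at once and also the E-box that MYC proteins bind, was in 7.15% of all windows and in 13.0% of member windows. Windows of 5 of the 7 members that differed between the fissure and the rest of the cup follow, each on the strand of its gene, with both cores in capitals, written CACGT and CACGC where they lie on the opposite strand. Slc2a1 and Ddit4 were higher in the fissure, Hk2, Ldha and Slc16a3 lower; of the 2 windows listed for Ldha the one with more cores is given, and Slc2a3 and Ndrg1 are not in the table.
Slc2a1, chr4:119108495-119108794, plus strand: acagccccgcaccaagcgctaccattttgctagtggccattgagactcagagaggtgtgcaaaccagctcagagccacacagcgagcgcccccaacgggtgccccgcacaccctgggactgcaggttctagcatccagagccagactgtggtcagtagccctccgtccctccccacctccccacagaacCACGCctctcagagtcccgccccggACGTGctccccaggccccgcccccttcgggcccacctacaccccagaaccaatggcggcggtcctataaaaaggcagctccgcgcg
Ddit4, chr10:59951721-59952020, minus strand: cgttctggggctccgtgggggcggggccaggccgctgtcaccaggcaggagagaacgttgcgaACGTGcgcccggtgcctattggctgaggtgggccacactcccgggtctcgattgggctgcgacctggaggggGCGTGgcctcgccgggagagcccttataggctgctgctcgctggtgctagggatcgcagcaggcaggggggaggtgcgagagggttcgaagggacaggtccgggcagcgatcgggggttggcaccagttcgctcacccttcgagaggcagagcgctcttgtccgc
Hk2, chr6:82774405-82774704, minus strand: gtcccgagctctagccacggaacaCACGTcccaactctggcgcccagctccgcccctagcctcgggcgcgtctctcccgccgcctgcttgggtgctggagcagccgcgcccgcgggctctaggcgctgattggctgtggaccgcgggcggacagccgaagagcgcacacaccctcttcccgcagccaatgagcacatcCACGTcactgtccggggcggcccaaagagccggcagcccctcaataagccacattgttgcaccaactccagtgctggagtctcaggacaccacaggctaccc
Ldha, chr7:46845554-46845853, plus strand: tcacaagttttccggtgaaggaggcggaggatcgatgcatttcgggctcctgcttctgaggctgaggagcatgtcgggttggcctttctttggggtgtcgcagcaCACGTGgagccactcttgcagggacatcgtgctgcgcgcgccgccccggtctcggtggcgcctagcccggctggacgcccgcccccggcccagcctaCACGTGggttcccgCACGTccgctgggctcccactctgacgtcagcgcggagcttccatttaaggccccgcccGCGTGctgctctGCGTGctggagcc
Slc16a3, chr11:120948817-120949116, plus strand: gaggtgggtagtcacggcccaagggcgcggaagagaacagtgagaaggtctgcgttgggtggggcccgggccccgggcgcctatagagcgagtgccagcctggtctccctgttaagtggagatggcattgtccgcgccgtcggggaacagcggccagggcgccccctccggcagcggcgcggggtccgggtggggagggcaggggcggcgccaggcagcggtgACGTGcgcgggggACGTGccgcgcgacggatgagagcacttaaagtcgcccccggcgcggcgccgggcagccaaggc

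In these windows the cores lay in different places. The Slc2a1 window held 1 ACGTG, 36 bases before the start, and 1 GCGTG on the opposite strand. The Ldha window held 5 matches to ACGTG, of which 4 make up 2 CACGTG, and 2 to GCGTG just after the start. Hk2 and Slc16a3 held 2 ACGTG each, both on the strand opposite to the gene for Hk2 and both on the gene's strand for Slc16a3. Cores were thus present in windows of members that were higher and of members that were lower in the fissure. A match is a stretch of letters, and no binding was measured here.

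**Figure D1:**
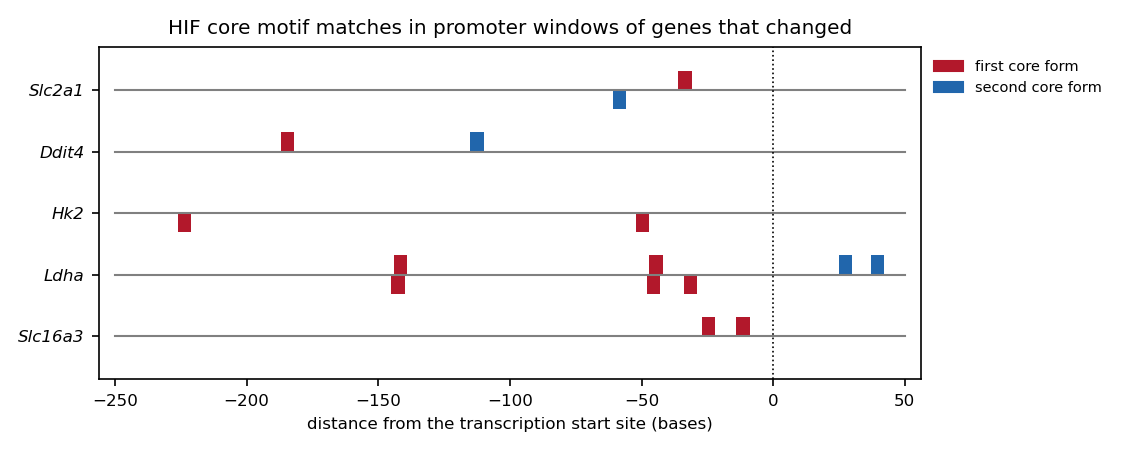
Places of the HIF core in the promoter windows of 5 members that differed between the fissure and the rest of the cup, by distance from the transcription start (bases; 0 is the start). Each block is 1 match, red for ACGTG and blue for GCGTG, above the line on the gene's strand and below it on the other; the Ldha window holds 7 blocks and each of the others 2.

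Samples of a region are separate replicates by the series' own account, but nothing ties a letter to an embryo, and p-values cover only the spread among the 9 samples. On the first principal component fissure array B lay at -9.40, away from fissure arrays A and C at -38.6 and -43.0. The ratio of the Gapdh signal at the 3-prime end to that at the 5-prime end is a measure of RNA integrity. It averaged 9.35 ± 5.15 in the fissure, 6.58 ± 1.98 in the nasal and 6.19 ± 1.54 in the temporal cup (SD, n = 3 each). It was lowest in letter B in every region. On fissure arrays A, B and C it was 8.12, 4.93 and 15.0, the last being the highest of all arrays. The poly-A spike, a bacterial RNA added at labelling, read 504 ± 244, 280 ± 104 and 237 ± 102, and was highest on fissure array C (778). Markers of other cells differed too. Past the threshold given with the first comparison, 5.72% of all tested genes were higher in the fissure and 2.88% lower. Of 10 macrophage and leukocyte markers all 10 were higher in the fissure, with summed intensities of 2796 to 3222 against 484 to 775 in nasal and 389 to 656 in temporal samples (Laptm5, C1qb and Ctss with the smallest p). Of 7 tested lens markers 5 were higher (Maf, Cryaa and Crybb1 with the smallest p), with sums over the list of 2496 to 3638 against 674 to 717 and 606 to 1289. Of 11 mesenchyme markers 4 were higher and 2 lower (with the smallest p, Pdgfra higher and Postn and Dcn lower), at 1196 to 2440 against 823 to 1254 and 653 to 1398. Of 9 retinal progenitor markers 3 were lower (Fgf15, Hes5 and Pax6), and the sums were 6599 to 7018 against 9958 to 10606 and 9612 to 10562. Another of them, Lhx2, had a positive change of 0.62 (SE 0.20, adjusted p = 0.0820, and 0.00722 with the letter of the arrays as a replicate block, a second fit that is explained with the first comparison). Of 6 tested surface ectoderm markers 1 was higher and 3 lower (Dsp, Krt18 and Krt8), at sums of 467 to 543 against 1170 to 1538 and 874 to 1302. Of 8 pigment epithelium markers 1 was higher (Mitf) and 3 lower (Oca2 and Mlana with the smallest p). None of 5 erythroid, 7 endothelial and 6 neuron markers passed in limma without the block; 3, 3 and 1 had an unadjusted p below 0.05. With the block, where 17.0% of all tested genes passed, 3 erythroid markers (Hba-x, Hbb-bh1 and Alas2, by 0.69 to 0.79) and 2 endothelial markers (Eng and Egfl7) rose. In that fit the neuron marker Atoh7 fell, and 6 lens and 5 mesenchyme markers were higher and 5 pigment epithelium markers lower. All 4 ventral cup markers were higher in the fissure (Vax1, Ntn1 and Aldh1a3 with the smallest p), at 6228 to 8231 against 920 to 1947 and 1388 to 1860. No marker on these lists read 0 on any array. The part these cell types, the spike and the RNA measure have in the values below was not tested beyond the fits named with them, and in such bulk samples fewer cells of a type and less RNA per cell cannot be told apart.

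The first comparison sets the fissure against the mean of the nasal and temporal cup. Glycolysis and hypoxia genes did not move as one: 3 of 31 members were higher in the fissure and 4 were lower. The glucose carrier gene Slc2a1 and the hypoxia targets Ddit4 and Ndrg1 were higher, by 1.48-, 1.69- and 1.82-fold. The hexokinase gene Hk2, the lactate dehydrogenase gene Ldha, the glucose carrier gene Slc2a3 and the lactate carrier gene Slc16a3 were lower, by 2.20-, 1.54-, 1.69- and 1.99-fold. These folds are on the scale of log2(intensity + 16) and understate the change of dim genes. Passing means a limma p below 0.05 after Benjamini-Hochberg adjustment over all tested genes.

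The 7 members that passed are 22.6% of the 31, where 8.60% of all tested genes passed (5.72% higher and 2.88% lower). The median change of the members was -0.15 on the log2 scale, against 0.04 over all tested genes, and 21 members lay below 0 and 10 above, where 44.0% of all tested genes lay below. For 9 members the fissure arrays did not overlap those of the other regions (3 higher, 6 lower), beside 14.2% of all tested genes. Arrays of the same letter deviated together from their region means, so the model was also fitted with the letter as a replicate block. Then 9 members passed, Slc16a1 and Hif1a being added, beside 17.0% of all genes. The count was 6 without the 3 arrays of letter B and 8 without fissure array B alone, but 3 without fissure array A, 2 without fissure array C, 4 without nasal array A and 3 without nasal array C. In the same order 12.5%, 13.5%, 4.27%, 4.62%, 6.35% and 7.40% of all tested genes passed, so the calls among all genes moved too. Only Hk2 passed in all of these fits. Of the fissure arrays, A and C had the higher Gapdh ratios, 8.12 and 15.0 against 4.93 for B. Whether this ratio has a part in the counts with arrays left out was not tested.

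**Figure D2:**
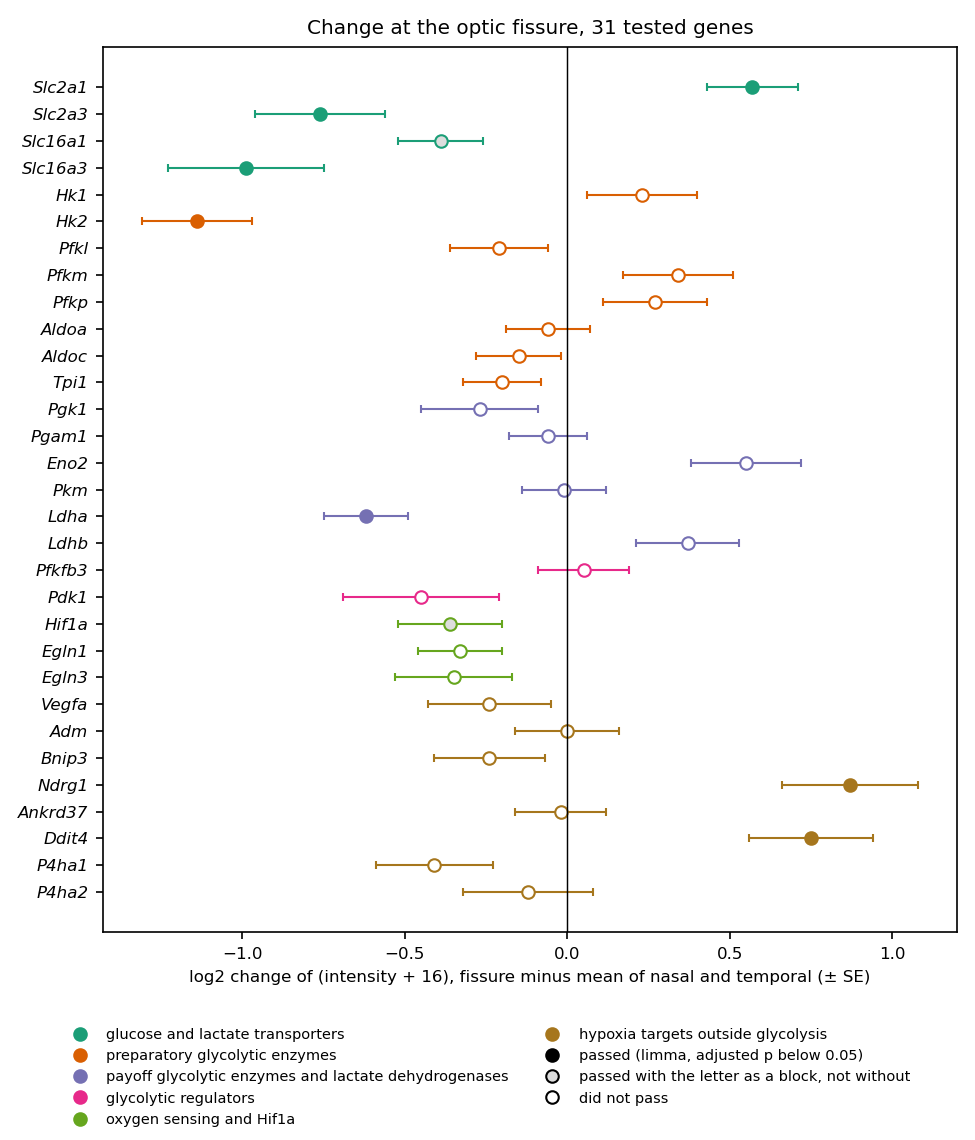
Change of the 31 tested members at the optic fissure, as the log2 difference of (intensity + 16) between the fissure and the mean of nasal and temporal cup, with its standard error (horizontal bars), coloured by role. Filled points passed, grey points passed with the letter as a block but not without it, and open points passed in neither fit; the filled points run from -1.14 (Hk2) to 0.87 (Ndrg1).

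Among the 4 carriers of glucose and lactate, 1 rose and 2 fell. Slc2a1 encodes GLUT1, the carrier of basal glucose uptake and of blood-tissue barriers. Its probe set 1434773_a_at read 3977, 3960 and 4132 on fissure arrays A, B and C, 2463, 2914 and 3262 on the nasal arrays and 2224, 2630 and 2868 on the temporal arrays. Every fissure array lay above every other array, and the fissure arrays were close to each other. The log2 change was 0.57 (SE 0.14, 95% interval 0.26 to 0.88, adjusted p = 0.0286, and 0.00728 in the blocked fit). The other probe sets of the gene changed by 0.61 and 0.42, and the mean over probe sets did not pass (0.53, adjusted p = 0.0714). The adjusted p rose to 0.112 without fissure array A, 0.122 without fissure array C, 0.0657 without nasal array A, 0.0648 without temporal array A and 0.0645 without the 3 letter B arrays, with changes of 0.52 to 0.60. With the poly-A spike added to the model the change was 0.37 (adjusted p = 0.375).

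Slc2a3 encodes GLUT3, a carrier of high glucose affinity known from neurons and early embryos. Its probe set 1437052_s_at read 292, 182 and 364 in the fissure, 586, 474 and 596 in nasal and 398, 345 and 453 in temporal cup. The nasal arrays were the highest, and fissure array C overlapped the temporal ones. The log2 change was -0.76 (SE 0.20, 95% interval -1.20 to -0.32, adjusted p = 0.0362, and 0.00380 with the block). A second, dimmer probe set read 103 ± 5.58, 199 ± 21.7 and 153 ± 8.38 and changed by -0.68; the remaining 2 lay below the filter. The change did not pass with the mean over probe sets (-0.33, adjusted p = 0.0848), with 1 as the added constant (-0.80, 0.0680), without the filter on low values (0.0541) or with the poly-A spike in the model (-0.96, 0.0809). Leaving out fissure array A or B, nasal array A or C, or temporal array A or C took the adjusted p to between 0.0649 and 0.102, with changes of -0.82 to -0.50. On each array the difference between the log2 values of Slc2a3 and Slc2a1, centred on its mean over the 9 arrays, lay between -1.39 and -0.51 in the fissure and between 0.06 and 0.90 elsewhere. The balance of these carriers' transcripts thus did not overlap between the fissure and the other arrays. This and the other paired differences are descriptions with no test, as the pairs were looked at with results known.

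Of the lactate carriers, Slc16a3 fell and Slc16a1 did not pass without the block. Slc16a3 encodes MCT4, a lactate exporter of glycolytic cells. It read 26.5, 2.40 and 4.60 in the fissure against 36.4, 27.8 and 36.9 in nasal and 32.1, 28.0 and 47.0 in temporal cup. The groups did not overlap, but the gene is dim: the 40th percentile of the arrays lay at 15.7 to 17.5, and fissure arrays B and C were under it. The log2 change was -0.99 (SE 0.24, adjusted p = 0.0271, and 0.0107 with the block), and it was -2.12 with 1 in place of 16 as the added constant and -0.40 with 64, neither of which passed. Nor did it pass with array weights (-0.54, 0.0759), without the letter B arrays (0.0848) or with the poly-A spike in the model (0.266). The adjusted p was 0.0725 without fissure array B, 0.142 without fissure array C, 0.0607 without nasal array A and 0.0541 without nasal array C.

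Slc16a1 encodes MCT1, which carries lactate and pyruvate both ways. It read 1028, 1063 and 946 in the fissure, 1392, 1347 and 1290 in nasal and 1429, 1173 and 1365 in temporal cup. All fissure arrays were below all others. The change of -0.39 (SE 0.13, 95% interval -0.67 to -0.11) had an adjusted p of 0.0864. It passed with the letter as a block (0.0407), with 64 as the added constant (0.0315) and with arrays weighted by their quality (0.00634).

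Of the 8 tested enzymes from glucose to triose phosphate, 1 fell and 7 did not pass. Hk2 encodes hexokinase 2, which traps glucose as its phosphate and is the inducible hexokinase of growing and hypoxic cells. Its single probe set, 1422612_at, read 194, 138 and 234 in the fissure, 399, 432 and 474 in nasal and 381, 416 and 464 in temporal cup. The highest fissure array was well below the lowest of the others, and nasal and temporal arrays ran over the same range. The log2 change of -1.14 (SE 0.17, 95% interval -1.50 to -0.78, adjusted p = 0.00121) was the largest of the 31. Under 22 other settings the change lay between -1.37 and -0.95 and the adjusted p between 8.66e-05 and 0.0105, so that it passed in each.

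Hk1, the hexokinase gene expressed in most tissues, read 233, 190 and 189 in the fissure, 151, 207 and 134 in nasal and 146, 202 and 204 in temporal cup. The regions overlapped, and the change of 0.23 (SE 0.17, 95% interval -0.15 to 0.60, adjusted p = 0.489) did not pass. The centred difference between Hk2 and Hk1 lay between -1.20 and -0.49 in the fissure and between 0.20 and 0.93 elsewhere.

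The phosphofructokinase genes, whose enzymes commit sugar to glycolysis, did not pass. Pfkm changed by 0.34 (adjusted p = 0.259), Pfkp by 0.27 (0.363) and Pfkl by -0.21 (0.482). Pfkm, the muscle form, read 320 ± 55, 234 ± 35.7 and 266 ± 48.5 in fissure, nasal and temporal cup (SD, n = 3 each, as in what follows). Pfkl, the liver form, read 501 ± 64, 573 ± 110 and 590 ± 35.9, and Pfkp, the platelet form, 52.6 ± 10.9, 39.6 ± 10.3 and 41.8 ± 3.29. The aldolase genes, whose enzymes split the 6-carbon sugar, differed less: Aldoa by -0.06 (1820 ± 145, 2046 ± 185 and 1769 ± 202, adjusted p = 0.842) and Aldoc by -0.15 (47.9 ± 2, 61.9 ± 7.62 and 48.4 ± 2.73, adjusted p = 0.547). Tpi1, triose phosphate isomerase, read 2155 ± 21.5, 2537 ± 198 and 2437 ± 83.4. Its fissure arrays lay below all others, but the change of -0.20 (SE 0.12) had an adjusted p of 0.366.

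Of the 6 tested genes from the triose phosphates to lactate, 1 fell and 5 did not pass. Ldha encodes the lactate dehydrogenase subunit that favours making lactate. Probe set 1419737_a_at, its only one, read 2987, 3188 and 2970 in the fissure, 5250, 4524 and 5462 in nasal and 3980, 4874 and 4319 in temporal cup. The 3 fissure arrays were close together and below all 6 others. The change was -0.62 (SE 0.13, 95% interval -0.91 to -0.34, adjusted p = 0.0119). Without fissure array A the adjusted p was 0.0709 and without fissure array C 0.0651, both at a change of -0.61; with the poly-A spike added to the model it was 0.0896 at -0.65.

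Ldhb encodes the subunit that favours turning lactate back to pyruvate. It read 3166, 2282 and 3413 in the fissure, 2326, 1815 and 2442 in nasal and 2386, 2169 and 2427 in temporal cup. Fissure arrays A and C were above all others and fissure array B was not. The change of 0.37 (SE 0.16, 95% interval 0.01 to 0.73) had an adjusted p of 0.211, and 0.0462 at a change of 0.54 without fissure array B. The centred difference between Ldha and Ldhb lay between -0.93 and -0.25 in the fissure and between 0.01 and 0.58 elsewhere. So in 3 pairs, Slc2a3 with Slc2a1, Hk2 with Hk1 and Ldha with Ldhb, the first gene stood lower against the second on every fissure array than on any other array. The differences between their log2 changes were -1.33, -1.36 and -0.99. Slc2a1, Hk2 and Ldha already set the fissure arrays apart from all others by themselves. How often gene pairs in general separate in this way was not worked out. In the other 5 pairs the arrays overlapped: Slc16a3 against Slc16a1 (-0.60), Pfkl against Pfkm (-0.55), Aldoc against Aldoa (-0.09), Egln3 against Egln1 (-0.02) and P4ha2 against P4ha1 (0.29).

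**Figure D3:**
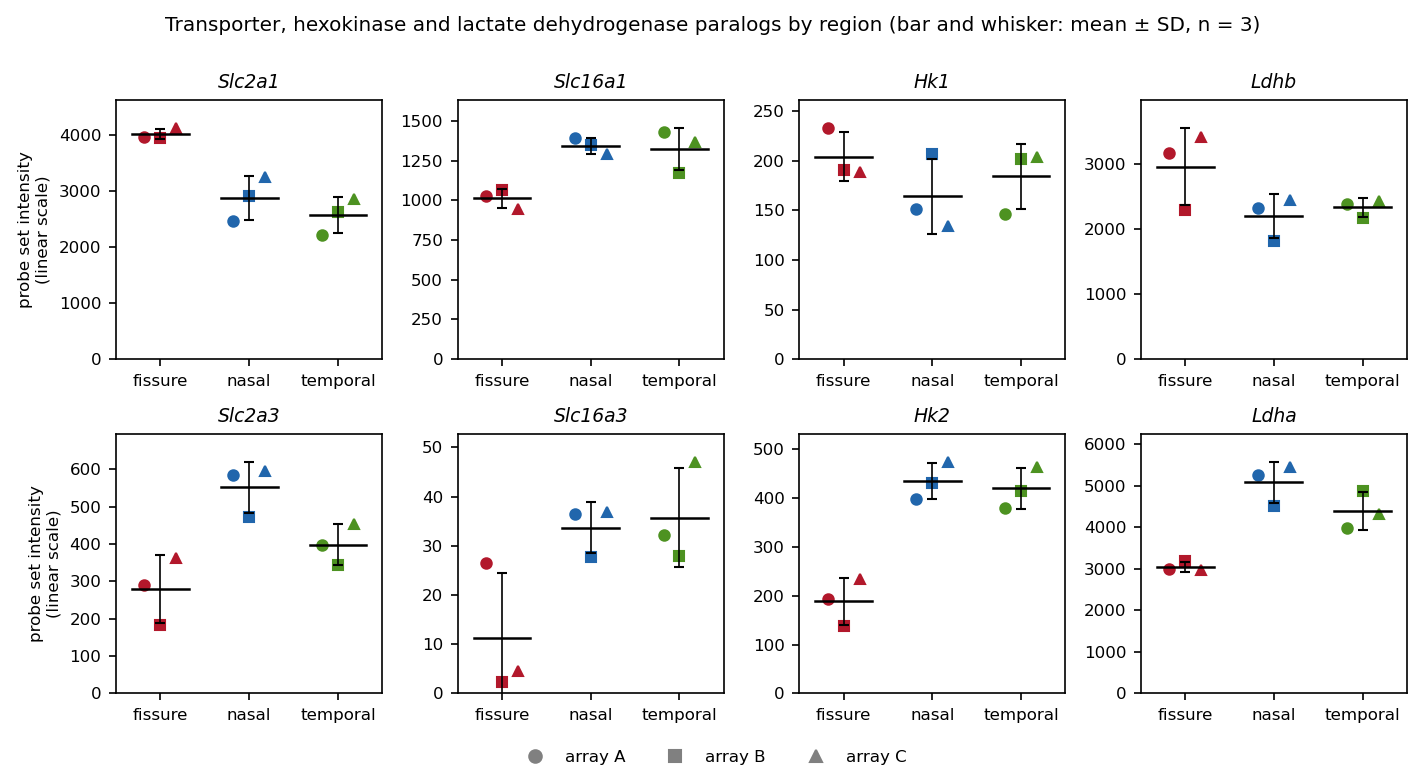
Probe set intensity (linear scale, arbitrary units) of the glucose carrier, lactate carrier, hexokinase and lactate dehydrogenase paralogs in fissure, nasal and temporal cup; symbols give the array letter, bars and whiskers the mean and SD of 3 arrays. In the lower row the fissure means lie below both others, at 279 for Slc2a3, 11.2 for Slc16a3, 189 for Hk2 and 3048 for Ldha.

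Eno2, the neuronal enolase gene, read 67.8, 57.1 and 98.1 in the fissure, 38.1, 41.6 and 33.2 in nasal and 45.1, 69.4 and 46.6 in temporal cup. Fissure arrays were above all nasal arrays, and temporal array B lay among them. The change of 0.55 (SE 0.17) had an adjusted p of 0.0801, and passed at 0.79 without the 3 letter B arrays (0.0220), at 0.69 without fissure array B (0.0351) and at 0.63 without temporal array B (0.0483). The other enzymes of this stage did not pass. Pgk1, phosphoglycerate kinase, changed by -0.27 (adjusted p = 0.431), Pgam1, phosphoglycerate mutase (2216 ± 103, 2450 ± 86.3 and 2178 ± 119), by -0.06 (0.828), and Pkm, pyruvate kinase, by -0.01 (0.978). For Pkm the 95% interval of the change, -0.29 to 0.27, went with readings of 2574 ± 313, 2656 ± 39.1 and 2510 ± 116. The 3-prime control probe set of Gapdh read 7165 ± 494, 7289 ± 1000 and 6729 ± 431, a change of 0.04 (95% interval -0.26 to 0.33, adjusted p = 0.916). The 5-prime one read 917 ± 428, 1143 ± 177 and 1129 ± 253.

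Neither regulator of flux passed. Pfkfb3 makes the activator of phosphofructokinase and Pdk1 encodes the kinase that closes the pyruvate dehydrogenase complex. Pfkfb3 changed by 0.05 (adjusted p = 0.891). Its second probe set, barely above the filter, changed by -0.41, so its direction differs between probe sets. Pdk1 read 522, 911 and 421 in the fissure, 679, 1106 and 786 in nasal and 624, 875 and 863 in temporal cup, a change of -0.45 (SE 0.24, adjusted p = 0.305). Fissure array B was far above the other fissure arrays in this probe set. Without that array the change was -0.77 (adjusted p = 0.0395), in a fit where 13.5% of all tested genes passed. The other Pdk1 probe sets changed by -0.31, -0.23 and 0.08. The brightest of those read 344 ± 12.3 in the fissure, a far smaller spread than 618 ± 259 for the one used.

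Hif1a and the oxygen sensors had negative changes, none of which passed in the fit without block or weights. Hif1a, whose protein is regulated mainly by its stability and only in part by its transcript, read 1975, 2692 and 1987 in the fissure, 2912, 3310 and 2529 in nasal and 2652, 3172 and 2460 in temporal cup. Within each letter the fissure was the lowest region, while across letters the regions overlapped. The change of -0.36 (SE 0.16, 95% interval -0.71 to -0.01) had an adjusted p of 0.210 without and 0.0442 with the letter as a block, and of 0.00944 with array weights. The gene's other probe sets changed by -0.64, -1.03 and, below the filter, -0.53. Egln1, the main prolyl hydroxylase acting on HIF-1 alpha, read 523 ± 27.7, 682 ± 72.6 and 643 ± 46.9. No fissure array reached the others, and the change of -0.33 (SE 0.13) had an adjusted p of 0.153, and of 0.0457 with array weights, with which 32.1% of all tested genes passed. Egln3, a prolyl hydroxylase that HIF itself induces, read 64.5 ± 19.0, 87.6 ± 9.03 and 83.1 ± 18.3 and changed by -0.35 (adjusted p = 0.297).

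Among the 8 hypoxia targets outside glycolysis, 2 rose and 6 did not pass. Ddit4 encodes REDD1, an inhibitor of mTORC1 induced by hypoxia and other stresses. It read 136, 161 and 236 in the fissure, 129, 110 and 95.8 in nasal and 93.3, 95.1 and 64.1 in temporal cup. Fissure array A was close to nasal array A, and the groups did not overlap. The change was 0.75 (SE 0.19, 95% interval 0.35 to 1.16, adjusted p = 0.0278). The adjusted p was 0.157 at a change of 0.55 without fissure array C, 0.0519 and 0.0574 without nasal array B or C, 0.0622 without the letter B arrays, and 0.0533 or 0.189 with the Gapdh ratio or the spike in the model.

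Ndrg1, a gene induced by hypoxia and by differentiation, read 44.4, 29.2 and 52.1 in the fissure, 23.2, 6.90 and 11.2 in nasal and 24.3, 20.9 and 9.80 in temporal cup. The fissure arrays were the highest, but this gene too is dim, with 3 of the nasal and temporal arrays below the 40th percentile. The change was 0.87 (SE 0.21, adjusted p = 0.0271). Of its 5 probe sets, the other one above the filter changed by 0.68 and the 3 below it by 0.64, 0.05 and -0.06. Without fissure array A the adjusted p was 0.127, without fissure array C 0.143, and without nasal array B or C 0.0525 and 0.0544. It was 0.0549 with the Gapdh ratio (change 0.76) and 0.0737 with the poly-A spike (1.07) in the model, and 0.0659 with 1 as the added constant (1.43).

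No other target passed. Vegfa, the angiogenic growth factor, read 97.5 ± 19.2, 127 ± 19.1 and 111 ± 38.6 (change -0.24, adjusted p = 0.531). Bnip3, which acts in mitophagy, changed by -0.24 (0.471) and P4ha1, a collagen prolyl hydroxylase subunit, by -0.41 (0.194). P4ha1 read 223, 237 and 189 in the fissure and 292 or more on all other arrays except nasal array B, at 191; without that array the change was -0.53 (adjusted p = 0.0424). P4ha2 (-0.12), Ankrd37 (-0.02) and Adm, the adrenomedullin gene (0.00), had adjusted p-values of 0.794, 0.962 and 0.993. P4ha2 read 63.1 ± 26.0, 68.7 ± 11.0 and 64.9 ± 6.93, and Ankrd37 59.3 ± 6.88, 62.5 ± 4.01 and 58.3 ± 11.4. Adm was near the filter in every region, at 14.9 ± 5.02, 15.9 ± 5.21 and 13.4 ± 1.33.

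The fissure was next set against each side alone; these comparisons share the fissure arrays with each other and with the first. Against the nasal cup 4 of 31 members passed, beside 6.37% of all tested genes: Ndrg1 was higher (0.98, adjusted p = 0.0374), and Hk2 (-1.16, 0.00372), Slc2a3 (-0.99, 0.0253) and Ldha (-0.73, 0.0146) were lower. With the letter as a block 7 passed, beside 12.5% of all genes, the additional ones being Slc2a1 (0.49, 0.0342), Slc16a3 (-0.97, 0.0281) and Eno2 (0.73, 0.0398). The median over members was -0.18. Without fissure array A, fissure array C or nasal array A 2 members passed, and without nasal array C 1, Hk2. In the same order 3.29%, 3.60%, 3.42% and 4.37% of all tested genes passed. The fall of Ldha had an adjusted p of 0.0600 to 0.0683 without any of those 4 arrays, and that of Slc2a3 passed without fissure array C but not without the other 3 (0.0710 to 0.0991). The rise of Ndrg1 had an adjusted p of 0.110 to 0.152 without fissure array A or C or nasal array B or C, and 0.0628 without the letter B arrays.

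Against the temporal cup 3 members passed, beside 5.36% of all tested genes: Ddit4 (0.93, SE 0.22, adjusted p = 0.0274) and Slc2a1 (0.65, 0.0410) were higher and Hk2 (-1.11, 0.00503) was lower. With the block 7 passed, beside 12.1%, the additional ones being Ndrg1 (0.76, 0.0424), Slc2a3 (-0.53, 0.0473), Slc16a3 (-1.02, 0.0248) and Ldha (-0.52, 0.0394). The median over members was -0.13. Only Hk2 passed without fissure array C, without any 1 of the 3 temporal arrays, and without the letter B arrays. Of all tested genes 3.16% passed without fissure array C, 3.52%, 3.50% and 4.17% without temporal array A, B or C, and 6.66% without letter B. In those fits the adjusted p was 0.0502 to 0.110 for Ddit4 and 0.0533 to 0.163 for Slc2a1, and Slc2a1 was lost without fissure array A (0.134) or nasal array B (0.0582) too. The gap between the sides in Slc2a3, -0.99 against nasal and -0.53 against temporal cup, is the nasal to temporal difference itself, 0.46 (SE 0.23, 95% interval -0.05 to 0.96), which did not pass.

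Between the nasal and temporal cup no member passed in limma, without or with the block, while 6 of 12770 genes did (0.0470%). At an unadjusted p below 0.05 there was 1 member without the block, Pfkfb3, and 371 of all tested genes. Pfkfb3 read 29.8, 35.7 and 33.6 in nasal and 40.9, 64.7 and 55.5 in temporal cup. The sides did not overlap, and the difference, nasal minus temporal, was -0.49 (SE 0.17, 95% interval -0.86 to -0.13, adjusted p = 0.436 with the block and close to 1 without). The gene's second probe set, barely above the filter, did not show this difference, at 20.7 ± 0.839 in nasal and 19.2 ± 2.70 in temporal cup. The members ran from -0.49 to 0.46 with a median of 0.08. For Hk2 the difference was 0.05 (95% interval -0.37 to 0.47), for Slc2a1 0.16 (-0.20 to 0.52) and for Ldha 0.21 (-0.12 to 0.54).

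In some members the same letter gave the highest or the lowest reading in every region. Letter B gave the highest reading of each region for 5 of 31 members, Pgk1, Pdk1, Hif1a, Bnip3 and Pfkfb3, beside 10.5% of all tested genes. Pgk1 read 3645, 5425 and 3359 in the fissure, 4408, 5202 and 4582 in nasal and 4495, 6290 and 4618 in temporal cup, so that array B of the fissure was above 5 of the 6 arrays of the other regions. Bnip3 read 346, 498 and 355, then 468, 587 and 407, then 481, 499 and 388 in the same order. Slc2a3, Slc16a3 and Ldhb were lowest in letter B in every region, beside 17.6% of all tested genes. The Gapdh ratio was also lowest in letter B in every region, at 4.93, 4.90 and 4.46; whether it has a part in these letter differences was not tested.

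**Figure D4:**
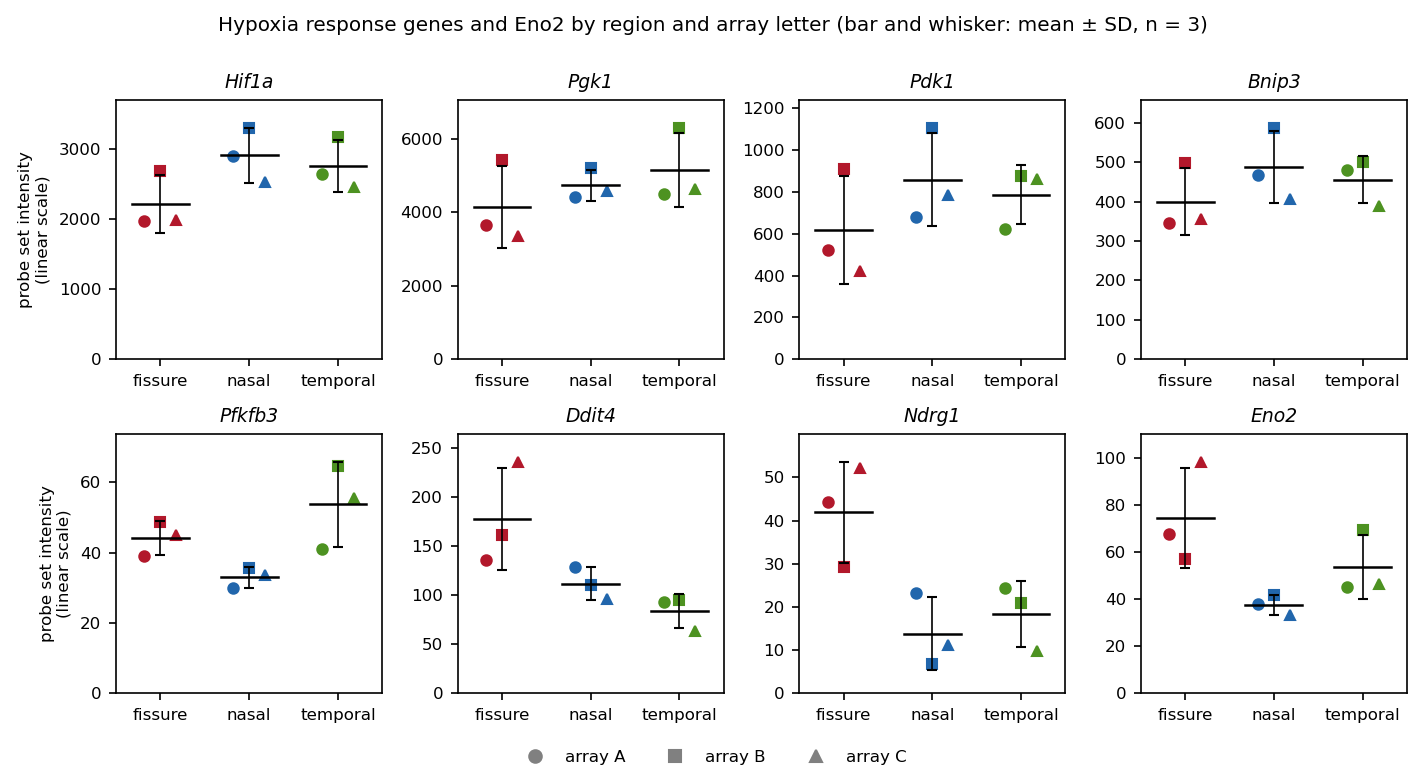
Probe set intensity (linear scale, arbitrary units) of 7 hypoxia response genes and Eno2 by region; symbols give the array letter, bars and whiskers the mean and SD of 3 arrays. In the upper row and in Pfkfb3 the square of letter B is the highest in every region, while Ddit4 and Ndrg1 are higher in the fissure (means of 178 and 41.9).

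The brightest probe sets of Pgk1, Aldoa, Tpi1, Ldhb and Adm carry the suffix x_at and those of Slc2a3 and Ndrg1 the suffix s_at, which on this array mark probes that can match other transcripts as well. Glycolytic genes have many processed pseudogenes, so these readings may hold signal of related sequences.

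Other genes of the pathways, outside the 34, are given by list for the first comparison. In it 8.60% of all tested genes passed (5.72% higher and 2.88% lower), and 17.0% passed with the block. The median change of all tested genes was 0.04. Of 11 tested isoenzymes and gluconeogenic enzymes 0 passed in limma (median 0.20), and the same held for 11 genes of pyruvate entry into mitochondria (0.13), 7 of the pentose phosphate pathway (0.12) and 17 of the citric acid cycle (-0.04). At an unadjusted p below 0.05 there were 0, 2, 2 and 1 of them, beside 2819 of all 12770 tested genes. With the block 1 gene of pyruvate entry and 1 of the pentose phosphate pathway rose. Of 8 other carriers 2 rose, Slc2a12 (0.59, adjusted p = 0.0229) and Slc2a10 (0.54, 0.0255), and 1 fell. The one that fell was Emb, which encodes embigin, a partner that brings monocarboxylate transporters to the membrane. It read 284, 297 and 403 in the fissure, 1323, 842 and 1094 in nasal and 1526, 1467 and 1361 in temporal cup. The highest fissure array was below the lowest of the others by a wide margin, a change of -1.89 (SE 0.17, adjusted p = 5.16e-05). Bsg, encoding basigin, the other such partner, changed by 0.28 (adjusted p = 0.341).

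Of 10 other HIF pathway genes 1 rose, Cited2, which encodes a competitor of HIF for the coactivators p300 and CBP and is itself induced by HIF. It read 1581, 1132 and 1523 in the fissure against 944, 815 and 842 in nasal and 844, 545 and 776 in temporal cup. All fissure arrays were higher (0.82, SE 0.17, adjusted p = 0.0119). Of 30 other hypoxia targets 2 rose, Ier3 (0.88, 0.0130) and Igfbp3 (0.69, 0.0379), both dim, and 0 fell, with a median of 0.03. Beside these lists, 5.72% of all tested genes rose and 2.88% fell. With the block 5 of the hypoxia targets rose and 1 fell, where 17.0% of all tested genes passed. Bhlhe40, a repressor gene induced by HIF, rose against the nasal cup alone (0.64, adjusted p = 0.0350), and its change against the temporal cup was 0.27 (0.408).

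Of 13 regulators of glycolytic gene expression 1 fell, where 2.88% of all tested genes did. With the block 1 also rose, Tsc1 (0.42, adjusted p = 0.130 without and 0.0281 with it), where 17.0% of all tested genes passed. Mycn, the MYC family gene of neural progenitors, read 836, 825 and 880 in the fissure, 1195, 1462 and 1374 in nasal and 1362, 1408 and 1621 in temporal cup. All fissure arrays were lower than the others, a change of -0.71 (SE 0.13, adjusted p = 0.00529). Myc changed by -0.11 (adjusted p = 0.794). Against each side alone Emb fell by 1.67 (nasal) and 2.11 (temporal) and Mycn by 0.65 and 0.78, all past the threshold, Slc2a10 rose against nasal cup, and Slc2a12, Cited2 and Ier3 rose against temporal cup. The retinal progenitor gene Pax6 was lower in the same captures, at 1565 ± 184 against 3199 ± 493 and 2835 ± 45.6, and its relation to the falls of Mycn, Hk2 and Ldha was not tested.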

How the data were processed

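RNA of 9 microdissected samples was measured on 1 array each. For each array the authors deposited 45101 probe set intensities, not log-transformed; their summary and scaling steps are not given in the sources used here. With 2% cut off at each end, the deposited intensities averaged 150.0 on every array, and medians ran from 27.5 to 30.3, so no further scaling was applied. Names came from GEO's platform annotation: 34945 probe sets had 1 symbol, 932 several and 9160 none, and 64 were controls; 0 symbols needed updating through RefSeq gene IDs. Values were turned into log2(intensity + 16), and limma 3.58.1 (lmFit and eBayes; R 4.3.3) estimated a mean for each region from the 9 arrays together. P-values were adjusted by Benjamini-Hochberg over the 12770 tested genes. The fit without the block was also tried on simulated data with independent noise on each array. Those data leave out the shared deviations of same-letter arrays, so they do not show how the fit behaves with them. No detection calls were used, and the number of arrays limits the precision.

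The letters A, B and C were checked as a pairing: across genes, deviations from the region means had correlations of 0.166 to 0.487 in 9 same-letter pairs and of -0.438 to 0.218 in 18 other pairs. This check, in which the ranges overlap, and no label, is the ground for treating the letters as a pairing. Members, the 8 pathway lists and the 10 marker lists were chosen with earlier results of these data known, and no list was tested. Every member is named; those passing in any of the 4 comparisons, with or without the block, are given on every array with their closest paralog, and other array values were chosen after they were seen. From other lists, genes past the threshold with the smallest p are named, up to 4 per pathway list and 3 per marker list, beside some chosen after their values were seen. Alternatives covered the filter, normalization, added constant, probe set summary, variance model, array weights, block, regions in the fit and each array left out; 4 were added after seeing the data (no letter B arrays, the Gapdh ratio or poly-A spike as covariate, control probe sets kept). Figures were drawn with matplotlib 3.10.9.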

Additional observations from a re-analysis of the deposited data

How the results depend on the processing

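The replicate block rests on the correlations of the letters in these values and on no label. With it 9 members passed when the fissure was set against both sides (7 without the block). Against nasal 7 passed (4), against temporal 7 (3) and between nasal and temporal cup 0 (0). Of all tested genes 17.0%, 12.5%, 12.1% and 0.133% passed with the block. With 1 as the added constant the first 3 counts were 3, 2 and 1, beside 7.08%, 5.17% and 4.17% of all genes. With array weights they were 17, 9 and 10, where 32.1%, 20.9% and 24.5% of all genes passed, so the larger counts came with more calls among all genes. With the poly-A spike in the model they were 1, 2 and 1, beside 3.47%, 3.38% and 2.14%. Against the temporal cup the count was 1 with only the regions compared in the fit (4.21% of all genes) and 1 without the 3 letter B arrays (6.66%). Leaving out 1 array at a time gave 2 to 8, 1 to 5, 1 to 4 and 0 to 0. The cause of these differences was not tested.

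Of 839 values of single members under an alternative, 706 kept their direction and their side of the threshold, 84 no longer passed, 21 newly passed, 28 that had not passed changed sign, and 0 that had passed reversed. Most of the 839 belong to members that had not passed, so 84 of 839 is not the share of calls lost. Slc2a1 against the temporal cup was lost under 12 of 23 alternatives. In the first comparison Slc2a3 was lost under 10 of 22 and Ldha under 3 of 22. Quantile normalization shifted the median of all genes by -0.02 for the first comparison and kept the counts at 7, 4, 3 and 0. Hk2 passed in the 3 fissure comparisons under every alternative run. Signal over background limits Slc16a3, Ndrg1 and Adm, whose values lie near the filter.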
